A study of Homo sapiens with 6 samples.

Results

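The genes described here are 40 named genes of RNA polymerase I transcription and ribosome assembly, taken from the deposited expression table by gene symbol alone. All 40 were found, each under 1 symbol, among 60612 genes in the table, and all 40 passed the filter on low counts that left 14990 genes for testing. The choice used no measured value of these libraries, although earlier results on the same data were known when the genes were listed. They fall by role into 5 genes of RNA polymerase I (Pol I) transcription, 3 of box C/D small nucleolar ribonucleoproteins (snoRNPs), 3 of box H/ACA snoRNPs, 6 nucleolar scaffold and chaperone genes, 12 factors of the small ribosomal subunit and 11 factors of the large subunit.

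The samples were HepG2 cells, an established line from a human liver cancer with an epithelial label. Of 6 RNA-seq libraries, 3 came from cells infected with lentivirus carrying a knockdown short hairpin RNA (shRNA). By the sample titles its target is circPRKAA1, a circular RNA of the PRKAA1 gene (sh-circPRKAA1). The shRNA labels of these samples instead read circPRKAA1, circPRKAA2 and circPRKAA3 KD, so a single shared hairpin is not certain. They are treated here as 3 replicates, following the titles. The other 3 libraries came from cells infected with lentivirus carrying a control hairpin (sh-ctrl). Both groups therefore received lentivirus and an shRNA, were labelled as wild type in genotype and were grown in the same serum-containing DMEM. The labels give no time after infection and name no clone, and nothing in them tells separate cultures from repeat preparations of 1 culture. The circle itself has no value in the table, so the knockdown was not checked. Counts of the PRKAA1 gene, which hold its linear transcripts, were higher in sh-circPRKAA1 (log2 fold change 0.92, SE 0.12, and 0.29 once GC and length offsets were added).

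Ribosomes are built in the nucleolus, where Pol I copies the ribosomal DNA into a long precursor RNA. Small nucleolar RNAs in box C/D and box H/ACA particles guide ribose methylation and pseudouridylation of that precursor. A large set of assembly factors then folds and cleaves it and packs it with ribosomal proteins, along separate routes for the small and the large subunit. The pathway is a main consumer of energy in growing cells, and its output rises with cell growth in liver and in liver tumours.

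Depth was 16348435 to 17549690 counts per library in sh-circPRKAA1 and 16284262 to 20282496 in sh-ctrl. The change across the transcriptome was broad: edgeR's quasi-likelihood test, with p-values adjusted by Benjamini-Hochberg over all tested genes at a threshold of 0.05, called 32.4% of genes lower and 36.1% higher in sh-circPRKAA1. Of all calls 52.7% were higher with trimmed-mean (TMM) scaling, against 65.7% with library totals and 71.6% with TPM scaling. The mean GC content of the counted transcripts was 48.9 ± 0.123% in sh-circPRKAA1 and 50.3 ± 0.417% in sh-ctrl (SD, n = 3 each). Chi-square per degree of freedom was 16.1 between sh-ctrl 1 and sh-ctrl 2, 7.43 between sh-ctrl 1 and sh-ctrl 3 and 5.21 between sh-ctrl 2 and sh-ctrl 3. Pairs of sh-circPRKAA1 libraries gave 3.82 to 5.21. In mean GC content sh-ctrl 3 (50.26%) lay between sh-ctrl 1 (50.74%) and sh-ctrl 2 (49.91%). Hepatocyte and HepG2 markers were detected for 10 of 10 genes, with summed levels of 26228 to 26905 counts scaled to a common library size (CPM) in sh-circPRKAA1 and 26756 to 28395 in sh-ctrl. Single markers moved apart within that sum: HNF4A had 144 to 157 CPM in sh-circPRKAA1 and 407 to 445 CPM in sh-ctrl, APOA1 1719 to 1885 CPM in sh-circPRKAA1 and 3535 to 4351 CPM in sh-ctrl, and APOB 4292 to 5367 CPM in sh-circPRKAA1 and 2474 to 3392 CPM in sh-ctrl. Fibroblast markers summed to 2.71 to 2.95 CPM in sh-circPRKAA1 and 3.82 to 4.28 CPM in sh-ctrl. Endothelial markers summed to 4.76 to 5.49 CPM in sh-circPRKAA1 and 4.82 to 7.45 CPM in sh-ctrl, and blood markers to 11.5 to 12.4 CPM in sh-circPRKAA1 and 11.4 to 13.7 CPM in sh-ctrl, with HBB, KDR and TEK at 0 in all 6 libraries.

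Of the 40 genes, 35 were lower in sh-circPRKAA1, beside 32.4% of all tested genes, and 1 was higher, beside 36.1%. The remaining 4 did not pass the test. Their median log2 fold change was -0.91, with a range of -1.95 to 0.34, where the median of all tested genes was 0.05. A fall of 2-fold or more was called for 18 of the 40, beside 7.99% of all tested genes. In 35 of the 40 every sh-circPRKAA1 library lay below every sh-ctrl library, as for 34.1% of all tested genes, and in 1 every sh-circPRKAA1 library lay above, as for 38% of them.

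Together the 40 genes took 0.426%, 0.411% and 0.416% of all counts in the sh-circPRKAA1 libraries, against 0.614%, 0.674% and 0.645% in the sh-ctrl libraries. The groups did not overlap, with means of 0.417 ± 0.00779% in sh-circPRKAA1 and 0.644 ± 0.0303% in sh-ctrl (SD, n = 3 each), and the exact permutation test gave p = 0.1, the smallest it can give with 3 libraries against 3. Without NPM1 and NCL, which hold the most counts, the shares were 0.265 ± 0.0019% in sh-circPRKAA1 and 0.446 ± 0.00448% in sh-ctrl. In bulk RNA, fewer cells that express a gene and less of its RNA per cell cannot be told apart.

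**Figure D1:**
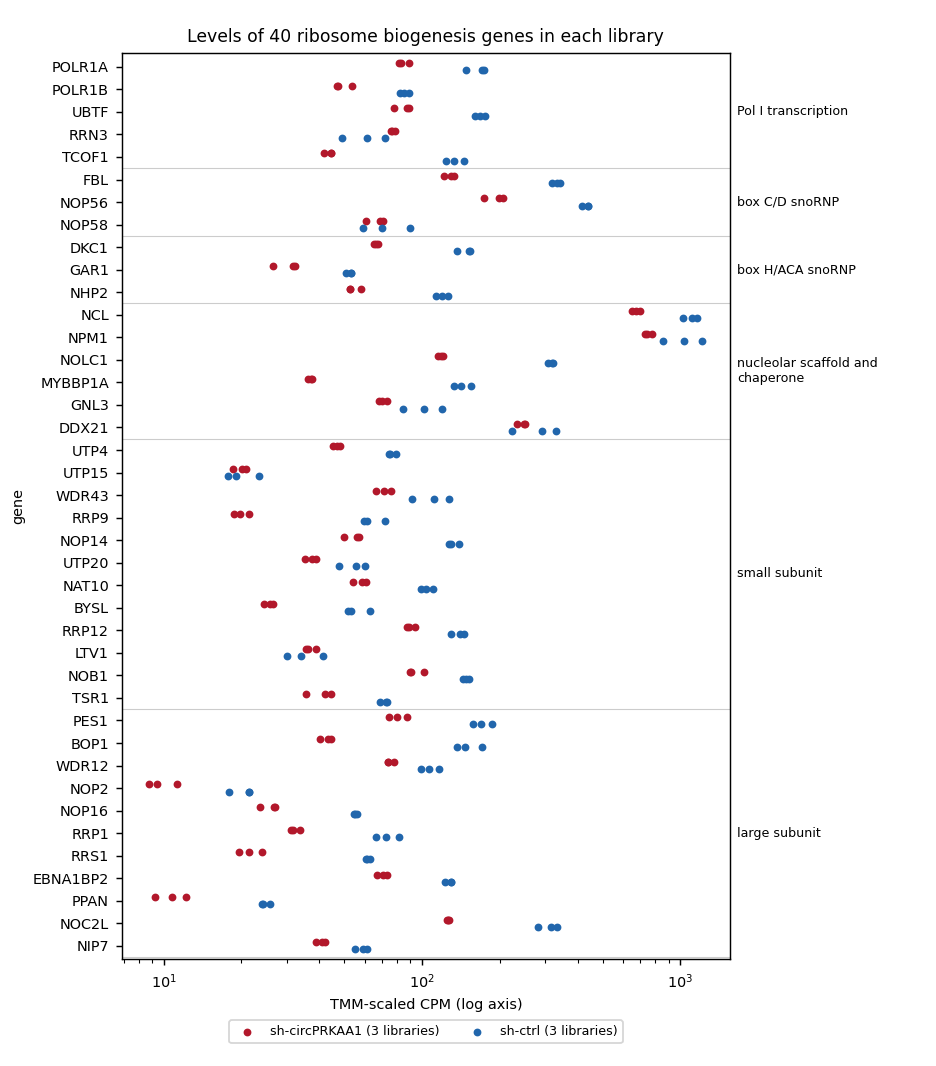
TMM-scaled CPM (log axis) of the 40 genes, with 1 point per library and genes grouped by role. The 3 sh-circPRKAA1 points lie left of all sh-ctrl points for 35 genes, right of them for RRN3, and overlap with them for NOP58, DDX21, UTP15 and LTV1.

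The promoters of the 40 genes, which largely moved together, were searched for letters that known factors bind. RefSeq promoter windows (GRCh38.p14, 250 bases before to 50 after a start) matched 34 of the 40 genes by symbol, in 43 entries since 9 genes have more than 1 start. BOP1, NOLC1, NOP58, RRP12, RRS1 and TCOF1 had no entry. The palindrome CACGTG, an E-box bound by basic helix-loop-helix factors, was present in 16 of the 34 genes (47.1%), against 12.5% of 10489 tested genes with a window and 8.77% of all 27305 genes with one. In the 50 bases after the start, 11 of the 34 genes (32.4%) held it, against 1.53% of tested genes and 1.12% of all genes. The windows below show it in 6 genes that were lower in sh-circPRKAA1 and in LTV1, which did not pass the test. Each is written 5′ to 3′ on the gene's strand, with the E-box in capitals.
MYBBP1A: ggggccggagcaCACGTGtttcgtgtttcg
FBL: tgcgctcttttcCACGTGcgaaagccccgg
NOP14: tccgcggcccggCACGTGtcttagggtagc
PES1: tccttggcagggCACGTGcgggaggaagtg
WDR43: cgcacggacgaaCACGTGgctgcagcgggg
GNL3: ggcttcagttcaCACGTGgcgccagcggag
LTV1: gtcctggggctgCACGTGtggtgaggccta

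These windows lie at chr17:4555340-4555369 (MYBBP1A, minus strand), chr19:39846356-39846385 (FBL, minus strand), chr4:2963374-2963403 (NOP14, minus strand), chr22:30591880-30591909 (PES1, minus strand), chr2:28894658-28894687 (WDR43, plus strand), chr3:52686026-52686055 (GNL3, plus strand) and chr6:143843354-143843383 (LTV1, plus strand). The first base of the E-box falls 28 bases after the start in MYBBP1A, 7 in FBL and GNL3, 16 in NOP14, 14 in PES1, 4 in WDR43 and 29 in LTV1. Over the 11 genes with an E-box after the start, its distance ran from 4 to 43 bases. The other 5 genes with an E-box, DDX21, NAT10, RRP9, UTP20 and UTP4, had it beginning before the start.

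The ETS-type motif CCGGAAG, searched on both strands, was in 14 of the 34 genes (41.2%) and in 22.2% of tested genes. The palindromic NRF1 motif was in 3 (8.82%: DKC1, MYBBP1A and NOB1), against 2.73% of tested genes. The YY1-type motif AAGATGGCG was in 1 (2.94%, NIP7), against 4.66%, and the GC box GGGCGG was in 26 (76.5%), against 76%. None of these motifs contains the letters of the E-box. Changes were seen with and without an E-box: 14 of the 16 genes with it were lower, with a median log2 fold change of -0.85, and 16 of the 18 without it were lower and 1 higher, with a median of -0.89. Over all 1315 tested genes with an E-box, 41% were lower and 31.9% higher, with a median of -0.09. Of all tested genes, with or without a window, 32.4% were lower and 36.1% higher, with a median of 0.05. These are matches of letters in the windows, and nothing here measures binding.

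In Pol I transcription 4 of 5 genes were lower in sh-circPRKAA1 and RRN3 was higher, with a median log2 fold change of -0.96. POLR1A (chr2:86020216-86106155), the largest subunit of Pol I, had 81.5, 88.7 and 82.6 CPM in sh-circPRKAA1, against 174, 148 and 171 CPM in sh-ctrl. It was lower by 0.96 on the log2 scale (log2 fold change -0.96, SE 0.08, edgeR adjusted p = 3.53e-08). POLR1B, the other large subunit of the catalytic core, had 46.8, 53.6 and 47.5 CPM in sh-circPRKAA1, against 84.8, 89 and 82.3 CPM in sh-ctrl (log2 fold change -0.79, SE 0.08). Neither subunit's groups overlapped.

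UBTF (chr17:44205033-44221626) encodes the HMG-box factor that coats active ribosomal DNA. Its level was 78.1, 89.2 and 87.3 CPM in sh-circPRKAA1, against 175, 161 and 168 CPM in sh-ctrl (log2 fold change -0.98, SE 0.08, edgeR adjusted p = 1.56e-08). TCOF1 (chr5:150357629-150400308) encodes treacle, a nucleolar protein that binds UBTF and Pol I. TCOF1 changed most of the 5, with 41.8, 44.4 and 44.6 CPM in sh-circPRKAA1, against 146, 124 and 133 CPM in sh-ctrl (log2 fold change -1.62, SE 0.08, edgeR adjusted p = 2e-10). In both genes the lowest control was well above the highest sh-circPRKAA1 library.

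RRN3 (chr16:15060033-15094311) encodes the factor that brings Pol I to its promoter-bound partners, and it went the other way. It had 76.8, 76 and 78.4 CPM in sh-circPRKAA1, against 48.9, 71.8 and 61.2 CPM in sh-ctrl (log2 fold change 0.34, SE 0.11, edgeR adjusted p = 0.00979). The sh-circPRKAA1 libraries were close to one another, and sh-ctrl 1 was at 73.9% of the other controls. With offsets for GC content and length the RRN3 value was 0.13 and did not pass (edgeR adjusted p = 0.116). RRN3 shares 34279 bases with PDXDC1 on the other strand, and its 3 pseudogenes held 7.49% of their summed counts. The strand setting of the counting is not given in the sources used here, so reads of RRN3, PDXDC1 and the copies may not be fully separated.

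In box C/D snoRNPs, 2 of 3 genes were lower. FBL (chr19:39834458-39846379) encodes fibrillarin, the methyltransferase of the particle. Fibrillarin transcripts had 129, 133 and 122 CPM in sh-circPRKAA1, against 343, 318 and 332 CPM in sh-ctrl (log2 fold change -1.37, SE 0.07, edgeR adjusted p = 2.2e-10). NOP56 (chr20:2652593-2658393), a core scaffold protein of the same particle, had 205, 198 and 174 CPM in sh-circPRKAA1, against 439, 417 and 439 CPM in sh-ctrl (log2 fold change -1.17, SE 0.08, edgeR adjusted p = 2.16e-09). In both genes every sh-circPRKAA1 library was below every control.

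NOP58 (chr2:202265736-202303661), the paired scaffold protein of NOP56, did not pass the test. NOP58 had 70.7, 60.8 and 68.5 CPM in sh-circPRKAA1, against 59.3, 89.7 and 70.2 CPM in sh-ctrl (log2 fold change -0.14, SE 0.12, edgeR adjusted p = 0.319). The groups overlapped: sh-ctrl 1 lay below all 3 sh-circPRKAA1 libraries, and sh-ctrl 3 lay just below the highest of them. Without sh-ctrl 1 the value was -0.28 and passed (edgeR adjusted p = 0.00115), and with GC and length offsets it was -0.33 and passed (edgeR adjusted p = 0.000827).

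All 3 box H/ACA genes were lower. DKC1 (chrX:154762742-154777689) encodes dyskerin, the pseudouridine synthase of the particle and a partner of telomerase RNA. Dyskerin transcripts had 65.4, 66.3 and 67.7 CPM in sh-circPRKAA1, against 153, 152 and 136 CPM in sh-ctrl (log2 fold change -1.15, SE 0.08, edgeR adjusted p = 2.74e-09). NHP2 averaged 54.6 ± 3.21 CPM in sh-circPRKAA1 and 119 ± 6.62 CPM in sh-ctrl (log2 fold change -1.13, SE 0.08, and -0.74 with GC and length offsets). GAR1 averaged 30.2 ± 3.18 CPM in sh-circPRKAA1 and 52.4 ± 1.15 CPM in sh-ctrl (SD, n = 3 each; log2 fold change -0.79, SE 0.09). These core proteins of the particle did not overlap between the groups in any of the 3 genes.

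Among the nucleolar scaffold and chaperone genes 5 of 6 were lower, with a median of -0.62. MYBBP1A (chr17:4538897-4555386), a nucleolar protein that binds MYB, had the largest fall of the 40. It had 37.5, 36.2 and 37.3 CPM in sh-circPRKAA1, against 155, 133 and 141 CPM in sh-ctrl (log2 fold change -1.95, SE 0.08, edgeR adjusted p = 3.14e-11). Only 0.614% of all tested genes had a lower fold change. NOLC1 (chr10:102152176-102163871), the Nopp140 chaperone of snoRNPs, had 115, 118 and 121 CPM in sh-circPRKAA1, against 307, 321 and 317 CPM in sh-ctrl (log2 fold change -1.42, SE 0.07, edgeR adjusted p = 1.04e-10).

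NCL (chr2:231453531-231483641), which encodes nucleolin, had 700, 652 and 673 CPM in sh-circPRKAA1, against 1023, 1156 and 1107 CPM in sh-ctrl (log2 fold change -0.70, SE 0.07, edgeR adjusted p = 3.22e-07, and -0.23 with quantile normalization). NPM1 (chr5:171387116-171411137), which encodes nucleophosmin, a histone and ribosome chaperone, had 777, 729 and 739 CPM in sh-circPRKAA1, against 859, 1216 and 1031 CPM in sh-ctrl (log2 fold change -0.47, SE 0.10, edgeR adjusted p = 0.000507). The fall of NPM1 did not pass in 4 of 20 alternatives, including TPM scaling (-0.18), and its sign turned with quantile normalization (0.04). Its 46 pseudogenes held 3.23% of their summed counts.

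GNL3, the GTPase nucleostemin, averaged 70.6 ± 2.74 CPM in sh-circPRKAA1 and 102 ± 17.6 CPM in sh-ctrl (SD, n = 3 each; log2 fold change -0.54, SE 0.10), a fall that did not pass with TPM scaling (-0.25). DDX21, an RNA helicase of Pol I transcription and processing, had 251, 234 and 248 CPM in sh-circPRKAA1, against 222, 331 and 291 CPM in sh-ctrl (log2 fold change -0.20, SE 0.11, edgeR adjusted p = 0.101). As for NOP58, sh-ctrl 1 lay below all sh-circPRKAA1 libraries in DDX21, at 71.4% of the other controls. Without that library the DDX21 value was -0.37 and passed (edgeR adjusted p = 2.9e-06), and with GC and length offsets it was -0.47 and passed (edgeR adjusted p = 2.28e-06). DDX21 also passed as lower with median-of-ratios scaling, with DESeq2 and with no filter on low counts, at -0.24 in each.

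For the small subunit 10 of 12 genes were lower, with a median of -0.68, and 3 of them by 2-fold or more. RRP9 (chr3:51933429-51941904), a protein of the U3 snoRNP, had 19.8, 21.5 and 18.8 CPM in sh-circPRKAA1, against 71.6, 61.1 and 59.8 CPM in sh-ctrl (log2 fold change -1.68, SE 0.10, edgeR adjusted p = 6.79e-10). NOP14 (chr4:2937933-2963406), a protein of the small subunit processome, had 49.8, 56.8 and 55.9 CPM in sh-circPRKAA1, against 139, 127 and 129 CPM in sh-ctrl (log2 fold change -1.28, SE 0.08, edgeR adjusted p = 1.47e-09). BYSL, the pre-ribosome factor bystin, averaged 25.6 ± 1.01 CPM in sh-circPRKAA1 and 55.9 ± 6.31 CPM in sh-ctrl (log2 fold change -1.12, SE 0.10). These 3 genes have GC contents of 60.9%, 51.3% and 57.1% in their longest transcripts.

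A smaller fall was measured for 7 small subunit genes, from -0.55 to -0.85. NAT10, which acetylates cytidines of small subunit rRNA, averaged 57.8 ± 3.48 CPM in sh-circPRKAA1 and 104 ± 5.49 CPM in sh-ctrl (log2 fold change -0.85, SE 0.08). TSR1, a GTPase-like factor of the late pre-ribosome, averaged 40.8 ± 4.62 CPM in sh-circPRKAA1 and 71.7 ± 2.33 CPM in sh-ctrl (log2 fold change -0.81, SE 0.09). UTP4, of the UTP-A complex that loads early on the precursor, averaged 46.9 ± 1.47 CPM in sh-circPRKAA1 and 76.5 ± 2.66 CPM in sh-ctrl (log2 fold change -0.71, SE 0.08). These 3 genes did not overlap between the groups.

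NOB1, the nuclease that makes the mature end of small subunit rRNA, averaged 94.3 ± 7.02 CPM in sh-circPRKAA1 and 148 ± 4.19 CPM in sh-ctrl (log2 fold change -0.65, SE 0.08, and -0.33 with GC and length offsets). WDR43, also of UTP-A, averaged 71.2 ± 4.94 CPM in sh-circPRKAA1 and 110 ± 17.8 CPM in sh-ctrl (log2 fold change -0.63, SE 0.10). RRP12, a factor of pre-ribosome export, averaged 90.4 ± 3.53 CPM in sh-circPRKAA1 and 139 ± 8.07 CPM in sh-ctrl (log2 fold change -0.62, SE 0.07). UTP20, a large processome scaffold, averaged 37.2 ± 1.85 CPM in sh-circPRKAA1 and 54.5 ± 6.17 CPM in sh-ctrl (log2 fold change -0.55, SE 0.09, and -0.89 with GC and length offsets). WDR43 and UTP20 were more variable in sh-ctrl than in sh-circPRKAA1, with sh-ctrl 1 lowest in both.

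The remaining small subunit genes did not pass. UTP15, the third UTP-A protein here, had 20.9, 18.6 and 20.2 CPM in sh-circPRKAA1, against 17.7, 23.5 and 19 CPM in sh-ctrl (log2 fold change -0.02, SE 0.12, edgeR adjusted p = 0.892), and with GC and length offsets it was lower at -0.46 (edgeR adjusted p = 6.82e-05). LTV1, an adaptor removed from the late pre-ribosome, had 38.9, 35.5 and 36.3 CPM in sh-circPRKAA1, against 30, 41.5 and 34 CPM in sh-ctrl (log2 fold change 0.07, SE 0.11, edgeR adjusted p = 0.596, and -0.04 with offsets). The groups overlapped in both genes. UTP15 shares 244 bases with ANKRA2 on the other strand.

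All 11 large subunit genes were lower, with a median of -1.10, and 8 of them by 2-fold or more. BOP1 (chr8:144262045-144291438), of the PeBoW complex needed for large subunit rRNA maturation, had 44.6, 43.4 and 40.4 CPM in sh-circPRKAA1, against 171, 136 and 147 CPM in sh-ctrl (log2 fold change -1.82, SE 0.09, edgeR adjusted p = 1.7e-10). PES1 (chr22:30576625-30607083), pescadillo, had 79.7, 87.2 and 74.7 CPM in sh-circPRKAA1, against 187, 158 and 169 CPM in sh-ctrl (log2 fold change -1.09, SE 0.08, edgeR adjusted p = 1.53e-08). WDR12 (chr2:202874261-203014798), the third PeBoW protein, had 73.8, 78.2 and 73.8 CPM in sh-circPRKAA1, against 98.9, 116 and 106 CPM in sh-ctrl (log2 fold change -0.51, SE 0.08, edgeR adjusted p = 3.1e-05, and -0.94 with GC and length offsets). All 3 PeBoW genes were thus lower, by different amounts. WDR12 shares 74850 bases with CARF on the other strand, whose counts averaged 152.7 in sh-circPRKAA1 and 47 in sh-ctrl.

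RRS1, a factor that recruits the ribonucleoprotein of the smallest rRNA, averaged 21.7 ± 2.28 CPM in sh-circPRKAA1 and 61.5 ± 1.19 CPM in sh-ctrl (log2 fold change -1.50, SE 0.09). NOC2L, named for its yeast relative in large subunit export, had 125, 127 and 126 CPM in sh-circPRKAA1, against 333, 282 and 316 CPM in sh-ctrl (log2 fold change -1.30, SE 0.08, edgeR adjusted p = 6.78e-10). NOC2L is at chr1:944203-959309 and its 3 sh-circPRKAA1 libraries were nearly equal. PPAN averaged 10.8 ± 1.45 CPM in sh-circPRKAA1 and 24.7 ± 0.975 CPM in sh-ctrl (log2 fold change -1.20, SE 0.12), and RRP1 averaged 32.2 ± 1.37 CPM in sh-circPRKAA1 and 73.4 ± 7.69 CPM in sh-ctrl (log2 fold change -1.19, SE 0.09). PPAN shares 5651 bases on the same strand with the read-through gene PPAN-P2RY11, which averaged 5.667 counts in sh-circPRKAA1 and 20 in sh-ctrl, so the split of reads between them is uncertain.

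NOP16 averaged 25.8 ± 1.87 CPM in sh-circPRKAA1 and 55.3 ± 0.768 CPM in sh-ctrl (log2 fold change -1.10, SE 0.09). NOP2, which methylates cytosine of large subunit rRNA, had 8.81, 11.3 and 9.4 CPM in sh-circPRKAA1, against 21.5, 17.9 and 21.4 CPM in sh-ctrl (log2 fold change -1.04, SE 0.13), and was the gene with the fewest counts of the 40. It shares 11806 bases on the same strand with the protein-coding gene AC006064.6, which had 0 counts in every library. Reads that match both genes may therefore be missing from its counts. EBNA1BP2 averaged 70.2 ± 3.12 CPM in sh-circPRKAA1 and 127 ± 3.54 CPM in sh-ctrl (log2 fold change -0.86, SE 0.07), and NIP7 averaged 40.7 ± 1.72 CPM in sh-circPRKAA1 and 58.4 ± 2.96 CPM in sh-ctrl (log2 fold change -0.52, SE 0.08). None of these genes overlapped between the groups.

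**Figure D2:**
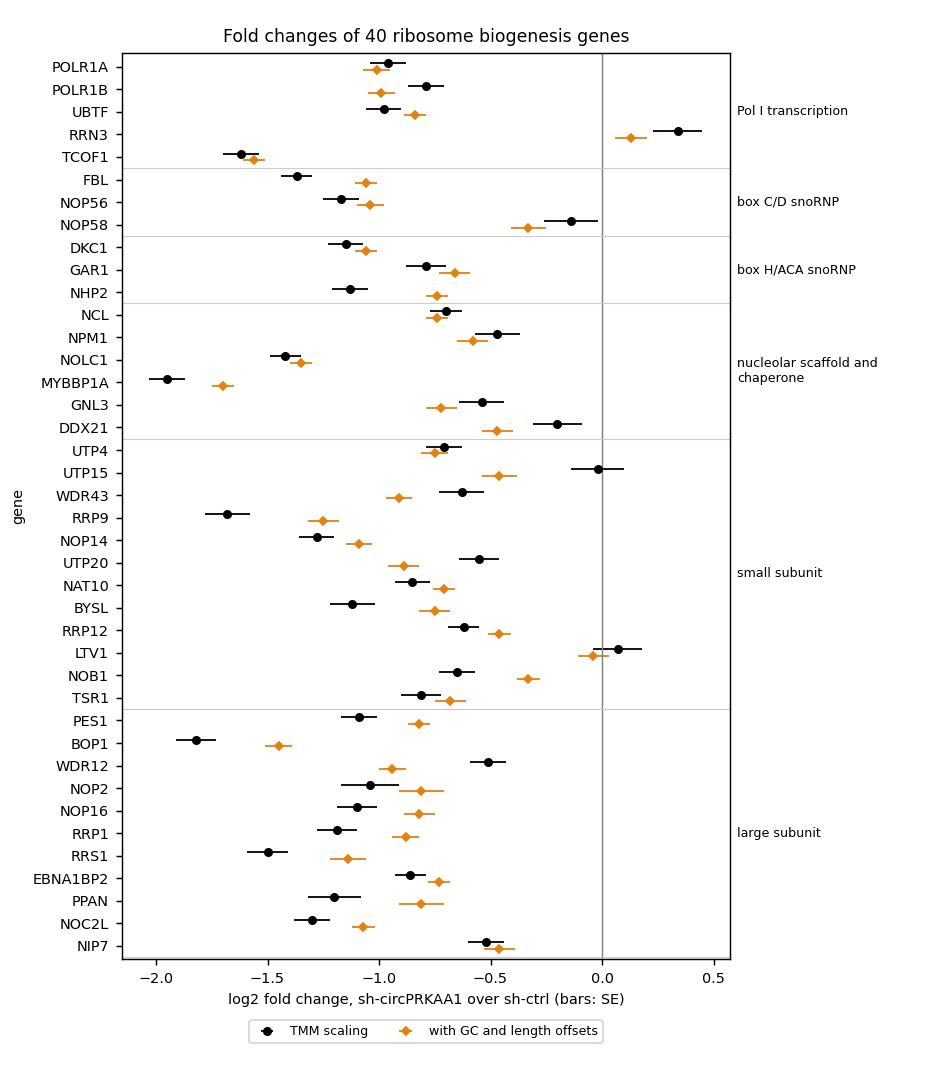
Log2 fold changes of the 40 genes, sh-circPRKAA1 over sh-ctrl, from TMM scaling (black circles) and after adding GC and length offsets (orange diamonds); bars are standard errors. With the offsets RRN3 and LTV1 stay near 0, at 0.13 and -0.04, and the other 38 genes are called lower.

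Per length, the most abundant of the 40 transcripts in both groups were NPM1, at 209 FPKM (counts scaled by exonic length and library total) in sh-circPRKAA1 and 252 FPKM in sh-ctrl, and NCL, at 106 FPKM in sh-circPRKAA1 and 150 FPKM in sh-ctrl. FBL was at 64 FPKM in sh-circPRKAA1 and 144 FPKM in sh-ctrl. NOB1 was at 48 FPKM in sh-circPRKAA1 and 65.6 FPKM in sh-ctrl, and DDX21 at 52.6 FPKM in sh-circPRKAA1 and 52.8 FPKM in sh-ctrl. Across the 40 genes the log2 fold change had little relation to the mean FPKM level (r = -0.09, rho = -0.16) or to exonic length (r = 0.11, rho = 0.17), as a description over 40 genes measured in the same 6 libraries. The scaling of FPKM by library totals differs from TMM, so DDX21 levels that are nearly equal in FPKM differ by -0.20 on the TMM scale.

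Because partners of 1 complex are needed together, ratios of their FPKM were compared over the libraries for 13 pairs. In 10 pairs the groups did not overlap, and in each of these the exact permutation test gave p = 0.1, the smallest possible, and 0.13 adjusted over the 13 pairs. Separation was common in these data: among single tested genes, 34.1% had every sh-circPRKAA1 library below every sh-ctrl library and 38% above. The share for ratios of other gene pairs was not computed, so the count of pairs is a description only. FBL over NOP58 was 2.79, 3.36 and 2.72 in sh-circPRKAA1, against 8.86, 5.43 and 7.25 in sh-ctrl (change of the log2 ratio -1.26, and -0.73 with GC and length offsets). NOP56 over NOP58 was 1.92, 2.16 and 1.68 in sh-circPRKAA1, against 4.9, 3.08 and 4.13 in sh-ctrl (-1.06, and -0.71 with offsets). FBL over NOP56 changed by -0.20 (-0.02 with offsets), so the larger changes within the box C/D particle were those relative to NOP58.

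In PeBoW, BOP1 over PES1 was 0.66, 0.587 and 0.638 in sh-circPRKAA1, against 1.08, 1.02 and 1.03 in sh-ctrl (change of the log2 ratio -0.73). BOP1 over WDR12 was 1.43, 1.31 and 1.29 in sh-circPRKAA1, against 4.09, 2.77 and 3.28 in sh-ctrl (-1.31). The difference in fold change with GC and length offsets was -0.64 for BOP1 over PES1 and -0.51 for BOP1 over WDR12, and for PES1 over WDR12 it was 0.13 where the ratio itself changed by -0.58. In UTP-A, WDR43 over UTP15 was 5.62, 5.49 and 5.44 in sh-circPRKAA1, against 7.97, 8.35 and 8.99 in sh-ctrl (-0.61, and -0.45 with offsets). Groups overlapped for DKC1 over NHP2 (-0.02, exact permutation p = 0.9), POLR1A over POLR1B (-0.17, p = 0.3) and UTP4 over WDR43 (-0.09, p = 0.7).

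**Figure D3:**
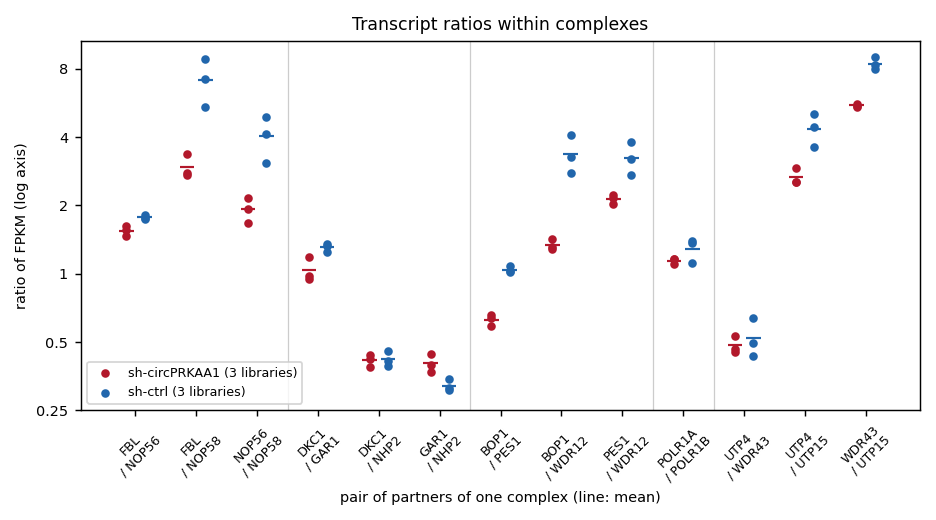
Ratio of FPKM (log axis) for 13 pairs of partners of a complex, with 1 point per library and a line at each group's mean. The ratios of FBL and NOP56 to NOP58, and of BOP1 to PES1 and WDR12, lie lower in all 3 sh-circPRKAA1 libraries than in any sh-ctrl library.

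The size of the change followed base composition. Across the 40 genes the log2 fold change went with the GC content of the longest transcript at r = -0.80 and rho = -0.78, and across 14863 tested genes with a GC value at r = -0.31 and rho = -0.37. All 29 of the genes above 45% GC were lower, with values from -1.95 to -0.52, and 42.6% of all tested genes above 45% GC were lower. Of the 11 genes up to 45% GC, 6 were lower, 1 was higher and 4 did not pass, beside 14.2% of all tested genes in that class that were lower. The highest class, above 60% GC, held BOP1, MYBBP1A, PPAN, RRP1 and RRP9, with a median of -1.68, where all tested genes of that class had a median of -0.34. In the class from 40% to 45% GC, the median was -0.49 for 10 genes of the 40 and 0.28 for all tested genes. Set against the median of all genes of the same GC class, 39 of the 40 lay below it, and RRN3 lay above it.

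Library sh-ctrl 1 moved with this pattern. Its log2 level minus the mean of the other controls went with GC content across the 40 genes at r = 0.86, from 71.4% of the other controls in DDX21 to 121% in BOP1 and BYSL. Without sh-ctrl 1 the log2 fold change still went with GC content at r = -0.76. In that setting 37 of the 40 genes were lower, beside 5159 of all 15572 genes tested. With offsets that take out a smooth trend in GC content and length from each library, 38 of the 40 genes were lower and 0 were higher, beside 33.7% and 35.3% of all tested genes, and their median was -0.81. The relation to GC content was then r = -0.50. With the offsets the 29 genes above 45% GC ran from -1.70 to -0.33, and the 11 genes up to 45% from -0.99 to 0.13. What part of the change is due to base composition was not tested.

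**Figure D4:**
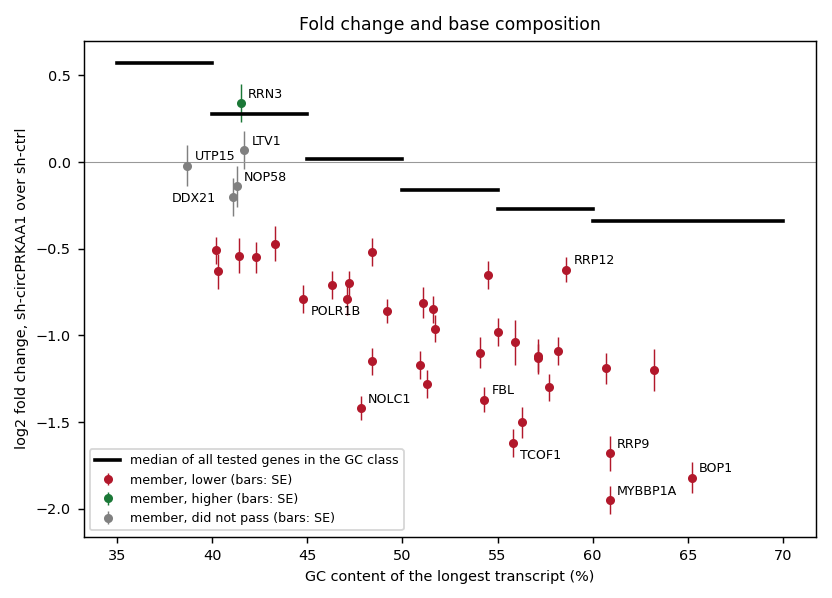
Log2 fold change (sh-circPRKAA1 over sh-ctrl, bars are standard errors) against GC content of the longest transcript for the 40 genes, with black lines at the median of all tested genes in each GC class; the outermost lines stand for open-ended classes. Of the 40 genes 39 lie below the line of their class, RRN3 lies above it, and the genes that did not pass all have GC contents under 45%.

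Other genes of the pathway were lower in part and higher in part. In 6 lists of further ribosome biogenesis genes, chosen by textbook role, 78 of 127 genes (61.4%) were lower and 19 were higher (15%). Their median was -0.42, and the shares stand beside 32.4% of all tested genes lower and 36.1% higher. Of the 19 higher genes, 17 had a GC content of 45% or less, and with GC and length offsets 97 of the 127 were lower and 9 higher. Among 43 other large subunit factors 28 were lower and 5 higher. CCDC86, a nucleolar protein, averaged 34.9 ± 2.57 CPM in sh-circPRKAA1 and 140 ± 9.19 CPM in sh-ctrl (log2 fold change -2.01), MRTO4, a relative of a ribosomal stalk protein, averaged 45.1 ± 4.36 CPM in sh-circPRKAA1 and 167 ± 7.49 CPM in sh-ctrl (-1.89), and NLE1 averaged 19.6 ± 0.939 CPM in sh-circPRKAA1 and 65.6 ± 4.08 CPM in sh-ctrl (-1.74).

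Among 34 other processome proteins of the small subunit 20 were lower and 3 higher, and RRP7A (-1.44), DDX49 (-1.37) and WDR46 (-1.19) had the smallest p. Of 12 late small subunit factors 9 were lower and 2 higher, with PNO1, a placeholder at the rRNA cleavage site beside NOB1, at 37.1 ± 0.991 CPM in sh-circPRKAA1 and 69.7 ± 3.71 CPM in sh-ctrl (log2 fold change -0.91). In snoRNP assembly 7 of 12 genes were lower and 1 higher, with the ATPases RUVBL1 at -1.09 and RUVBL2 at -1.12. Of 14 genes of the RNA exosome, the nuclease complex that trims rRNA precursors, 9 were lower (64.3%) and 4 higher (28.6%). Their values ran from -1.74 in EXOSC5 to 0.89, and with GC and length offsets 11 were lower and 1 higher. The counts of these lists stand beside 32.4% of all tested genes lower and 36.1% higher.

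Of 12 other Pol I subunits and factors 5 were lower (41.7%) and 4 higher (33.3%), with a median of 0.09, beside 32.4% and 36.1% of all tested genes. With GC and length offsets 6 were lower and 2 higher, with a median of -0.26, so the sign of the median depended on the offsets. CD3EAP, a Pol I subunit, averaged 3.52 ± 0.621 CPM in sh-circPRKAA1 and 14.1 ± 0.502 CPM in sh-ctrl (log2 fold change -1.99, SE 0.15), and POLR1C, shared with Pol III, averaged 40.4 ± 3.53 CPM in sh-circPRKAA1 and 64.6 ± 1.76 CPM in sh-ctrl (-0.68). TAF1C, of the promoter factor SL1, averaged 27 ± 0.558 CPM in sh-circPRKAA1 and 14.5 ± 0.926 CPM in sh-ctrl (log2 fold change 0.90, SE 0.10), a rise with a GC content of 62% that was 1.17 with offsets. Of subunits shared with the other polymerases 4 of 5 were lower, with POLR2F at -1.10, and of Pol II subunits 5 of 7 were lower (71.4%) and 1 higher (14.3%), with POLR2C at -0.68. Of 11 Pol III subunits 4 were lower (36.4%) and 3 higher (27.3%), shares near those of all tested genes, with POLR3GL at 0.73.

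**Figure D5:**
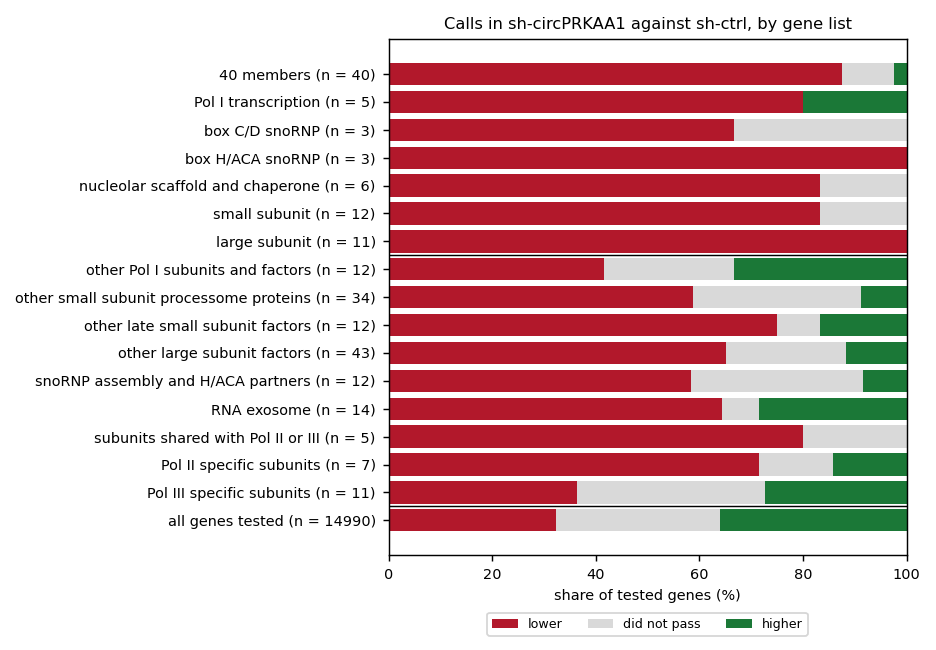
Share of tested genes called lower, not passing and called higher in sh-circPRKAA1, for the 40 genes, their roles, 9 further lists and all tested genes. The 40 genes have 87.5% lower and 2.5% higher, and all tested genes have 32.4% lower and 36.1% higher.

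Of the 40 genes, 8 carry small nucleolar RNAs in the annotation (20%), against 244 of the tested genes (1.63%). The hosts are NOP56, NOP58, DKC1, NCL, GNL3, WDR43, TSR1 and PPAN, and 7 of the 8 were lower, with a median of -0.76. That is beside 35 of all 40 genes and 32.4% of all tested genes, so the hosts did not stand out among the 40. Over all 244 hosts, 109 were lower (44.7%) and 74 higher (30.3%), with a median of -0.15. The small RNAs themselves could not be read from these libraries: 22 of their 27 entries matched a row of the table, and the highest count in any library was 8.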

How the data were processed

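Libraries of 6 HepG2 RNA samples used the SMARTER mRNA-Seq kit named in the labels' protocols. Per the file headers, the authors deposited raw counts for each Ensembl gene together with exonic length and FPKM. No aligner, counter or strand setting is given in the sources used here; GRCm38, mm10 and hg18 are the builds in the submitters' processing notes. Of the identifiers 96.3% were in GENCODE 29, and 99.98% of those overlapped its GRCh38 coordinates, which are used here. The authors' FPKM in 5 numbered columns equalled count over length and library total within 0.0051, so FPKM was computed from counts for all 6 libraries; 1 further FPKM column names no replicate and was not used.

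The shRNA labels of the knockdown samples read circPRKAA1, circPRKAA2 and circPRKAA3 KD, while the titles number replicates of sh-circPRKAA1. Groups follow the titles. With no word on separate cultures, p-values reflect spread that may be technical. Counts were filtered (edgeR 4.0.16 filterByExpr, minimum count 10, minimum total 15), scaled by TMM and tested by quasi-likelihood in R 4.3.3, sh-circPRKAA1 over sh-ctrl. Offsets were smooth terms of GC content and exonic length per library (mgcv 1.9.3). Alternatives also used limma 3.58.1 on log2(FPKM + 1) and DESeq2 1.42.0, and 20 were tried in all. The test was also run on simulated counts with far fewer changed genes and the same dispersion for every gene. That setting differs from these data, so it does not show how the test performs on them. All 40 genes are named, and up to 3 genes of the smallest p in each further list, of which 1 is not reported here. The 40 genes, the lists and the rule were chosen with earlier results of these data known. Chi-square per degree of freedom between replicates was 3.82 to 16.1, so none agreed within sampling noise.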

Additional observations from a re-analysis of the deposited data

How the results depend on the processing

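Across the 40 genes and 20 alternatives 762 values kept their direction and side of the threshold, and 33 genes were lower in all 20. The median of the 40 was -0.71 with library totals, -0.62 with TPM scaling, -0.85 with upper quartile scaling, -0.78 with quantile normalization, -0.85 for genes with a mean FPKM of at least 1, -0.63 with limma on log2(FPKM + 1), -0.71 on log2(FPKM + 0.1), -0.81 with GC and length offsets and -0.82 with these offsets and a replicate block. Library totals and TPM scaling shift the median of all genes to 0.25 and 0.34. They change only 1 factor per library and so move all genes nearly alike. The distance of the 40 from that median, -0.96 in both as with TMM, is thus fixed by construction and is no check. That distance was -0.76 with quantile normalization, -0.77 with limma on log2(FPKM + 1), -0.84 with the offsets and -1.19 with no filter on low counts. Genes of the 40 called higher numbered 2 with TPM scaling, and 0 with the offsets, with or without the block. Genes lower over the whole table numbered 2956 with TPM scaling. Genes of the further lists called higher numbered 37 with library totals and with limma on FPKM at either pseudocount, 41 with TPM scaling and 13 with the offsets, with or without the block. The cause was not tested.

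Sign changes were seen in NOP58, UTP15, DDX21 and LTV1, which did not pass the test, and in NPM1, which was called lower. NOP58 was at 0.06 with library totals, 0.15 with TPM scaling and 0.08 with limma at either pseudocount. UTP15 was at 0.18 with library totals, 0.27 with TPM scaling, 0.04 with upper quartile scaling and with the FPKM minimum, and 0.14 and 0.19 with limma; leaving out 1 library at a time gave -0.12 to 0.06. For DDX21 quantile normalization and TPM scaling both gave 0.08, and it was at 0.01 with limma at either pseudocount. NPM1 was at 0.04 with quantile normalization. LTV1 was at -0.04 with the offsets, -0.03 with the block and offsets and between -0.05 and 0.16 with 1 library left out, the lowest without sh-ctrl 1. With TPM scaling LTV1 was at 0.36 and was called higher (edgeR adjusted p = 0.0284).

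Leaving out each library in turn gave 35 to 37 of the 40 lower and 1 higher, with a median of -1.0 to -0.90. Over all genes 4489 to 5159 were lower and 4959 to 5417 higher, and in the further lists 85 to 104 were lower and 16 to 28 higher. Same-numbered libraries deviated with correlations of -0.0918, -0.149 and 0.0407, so the numbers are not taken as pairs. The replicate block gave 35 of the 40 lower and 1 higher, and 4627 genes lower and 5216 higher over the table. NOP2 and PPAN have the fewest counts of the 40 and the largest SE among the genes called. Both share bases on the same strand with another gene, and what part of their low counts is due to this was not tested.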
